A study of Homo sapiens with 2 samples.

Results

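The 10 Frizzled genes were read from 1 array of SW480 cells that carried GFP only and 1 array of SW480 cells that overexpressed hiNOS together with GFP. They were chosen by name: every gene whose array symbol starts with FZD, plus the spot printed as C2orf31, which is FZD5 by its accession and description, so that FZD1 to FZD10 are all represented among the 113 pathway genes. SW480 is a human colorectal adenocarcinoma line, and hiNOS is the label of an inducible nitric oxide synthase (iNOS) transgene. Both lines express GFP, were sorted on it and were grown on for weeks as stable cells before RNA extraction. Whether either line is a single clone is not given in the sources used here, and the gene of the transgene has no spot, so its overexpression could not be checked. With 1 array per group no difference below has a replicate or a test, and each value describes these 2 arrays.

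Frizzled proteins are membrane receptors with an extracellular cysteine-rich domain that binds Wnt ligands. With an LRP5 or LRP6 co-receptor they pass the signal through Dishevelled to stabilise beta-catenin, and without these co-receptors they also serve the planar polarity and calcium branches. In the intestinal epithelium Wnt signalling through Frizzled maintains stem cells, and in colorectal cancer it is commonly active downstream of the receptors. By sequence the family falls into 4 subgroups: FZD1, FZD2 and FZD7; FZD5 and FZD8; FZD4, FZD9 and FZD10; and FZD3 and FZD6.

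The comparison asks how the receptor genes differ when the enzyme is overexpressed. The receptors differed widely in signal, and the brightest spot was not the same on the 2 arrays. By the authors' calls FZD9, FZD2 and FZD1 were present on both arrays and FZD10 on the hiNOS array alone, while FZD3, FZD4, FZD5, FZD6, FZD7 and FZD8 were absent on both. FZD2 had a higher signal with hiNOS, by 1.45-fold after subtraction of the blank spots, and replaced FZD9 as the brightest receptor spot. No receptor reached a 2-fold difference in either direction, where 15.3% of the 59 genes present on at least 1 array did, so that 0 of 4 Frizzled genes is near the background share.

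Promoter sequences are shown for the 2 receptors present on both arrays that have an entry in the RefSeq table, and for FZD8, a receptor absent on both arrays. The table (GRCh38.p14) held a window from 250 bases before to 50 after the gene start for 5 of the 10 genes (FZD1, FZD4, FZD5, FZD8 and FZD9). Capitals mark matches, on either strand, to the GC box GGGCGG, the CCAAT box and the TATA box TATAAA. The FZD1 window lies at chr7:91264183-91264482 on the plus strand, that of FZD9 at chr7:73433528-73433827 on the plus strand, and that of FZD8 at chr10:35642247-35642546 on the minus strand.
FZD1: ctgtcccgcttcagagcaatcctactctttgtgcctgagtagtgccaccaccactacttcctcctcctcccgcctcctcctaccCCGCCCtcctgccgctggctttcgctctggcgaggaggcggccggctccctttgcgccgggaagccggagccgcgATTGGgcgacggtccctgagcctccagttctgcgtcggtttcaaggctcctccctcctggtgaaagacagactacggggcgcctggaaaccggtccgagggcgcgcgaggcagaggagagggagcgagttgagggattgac
FZD9: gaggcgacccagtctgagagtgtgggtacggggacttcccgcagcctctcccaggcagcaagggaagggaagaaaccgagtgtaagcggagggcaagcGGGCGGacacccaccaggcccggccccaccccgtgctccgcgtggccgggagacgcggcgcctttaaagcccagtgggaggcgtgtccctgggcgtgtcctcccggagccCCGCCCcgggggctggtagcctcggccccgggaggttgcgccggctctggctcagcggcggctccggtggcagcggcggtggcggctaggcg
FZD8: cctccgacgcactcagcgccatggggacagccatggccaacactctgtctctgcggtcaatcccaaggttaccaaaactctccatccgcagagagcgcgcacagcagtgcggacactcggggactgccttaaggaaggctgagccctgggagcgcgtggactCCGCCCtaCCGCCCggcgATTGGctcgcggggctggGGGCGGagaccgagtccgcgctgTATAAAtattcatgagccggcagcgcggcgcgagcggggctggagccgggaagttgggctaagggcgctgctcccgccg

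All 5 windows were rich in G and C, from 65.7% in FZD1 to 79.7% in FZD4, above the median of 58.7% over all 35116 windows in the table. Each of the 5 held at least 1 GC box, with 1 in FZD1, 2 in FZD9, 3 in FZD8 and 6 each in FZD4 and FZD5, and 45.0% of all windows held one. A CCAAT box was found in 4 of the 5, FZD9 being the one without, against 34.6% of all windows. The TATA box was found only in FZD8 among the 5, against 11.5% of all windows. The TCF/LEF core CTTTGA was searched on both strands and matched none of the 5, while 12.9% of all windows held it. These matches describe the letters of the windows, and the present receptors FZD1 and FZD9 did not share any motif searched that the absent FZD4, FZD5 and FZD8 all lacked.

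The scale of the arrays sets what these spots can show. Density is the average darkness of a spot in scanner units, with no background removed, and the 6 negative-control spots (blanks, plasmid and artificial sequences) read 11986 to 12779 units with GFP and 11408 to 13214 with hiNOS. The positive control averaged 50047 and 49565 units, and the GAPDH and ACTB spots used for scaling averaged 49004 and 48775, so these reference spots lie close to the top of the range; saturation was not tested. Control spots printed in duplicate, 4 pairs per array, differed within a pair by 57.1 to 1256 units, which is the only measure of spot error here and covers blank and very bright spots, not the middle of the range. Such pairs lie within 1 array and do not measure change between arrays. By density with no background subtracted, the 54 genes absent on both arrays had log2 ratios from -0.41 to 0.36. The ends were FRAT2, with 16726 units with GFP and 12557 with hiNOS, and NLK, with 13357 and 17005. On that measure FZD2 (0.34), FZD9 (-0.14) and FZD10 (0.25, from its own values) lie inside the range of the absent genes. The 6 negative controls ran from -0.11 to 0.11, and these receptors lie outside that range. Of the 54 absent genes, 12 were brighter than every negative control on both arrays, and whether they hold signal was not tested. Neither range covers the densities of FZD2 and FZD9. The Frizzled spots all lay under 90% of the positive control and none was called bleeding on either array. Different probes hybridise with different strength, so the order of densities below is an order of spots, not of transcript amounts.

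FZD9, which encodes a receptor whose gene lies in the interval deleted in Williams syndrome, was the brightest receptor spot with GFP. Its density was 41370 units with GFP and 37329 with hiNOS. With the blanks subtracted, and as a percentage of the mean GAPDH and ACTB signal, that is 78.9% and 68.6%, a 1.15-fold lower value with hiNOS (log2 ratio -0.20). The density fell by 4041 units, more than the largest difference between duplicate spots of 1256, which does not measure change between arrays.

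FZD2, a receptor linked with the beta-catenin branch and with responses to WNT5A, had 32261 units with GFP and 40749 with hiNOS. Its signal went from 53.8% to 78.0% of the GAPDH and ACTB mean, which is the 1.45-fold higher value given above, with a log2 ratio of 0.53. By density alone, with no background subtracted, it was 1.27-fold higher. The difference of 8488 units was larger than any duplicate difference and larger than the largest change of a negative control between the arrays, 1014 units. Neither measures change between arrays at this density. Among the 45 genes present on both arrays, 4 had a higher log2 ratio than FZD2 and 40 a lower one. Leaving out genes at 90% or more of the positive control on either array, which removes NKD2 with its log2 ratio of 0.73, 3 of the other 22 genes were higher.

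FZD1, of the same subgroup as FZD2, had 31454 units with GFP and 30169 with hiNOS. That is 51.6% and 48.9% of the GAPDH and ACTB mean, with a log2 ratio of -0.08. Its change of -1285 units was about the size of the largest duplicate difference, and its sign turned when the arrays were scaled to the middle 50% of all spots (0.01) or by quantile normalization (0.07), so no direction is given for FZD1. With GFP the FZD2 and FZD1 spots lay 807 units apart, within the spread of duplicates, whereas with hiNOS they lay 10580 units apart. The duplicates do not cover the middle of the range, where these spots lie.

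FZD10, a receptor with restricted expression in adult tissues, had 16948 units with GFP, called absent, and 20017 with hiNOS, called present. The GFP value exceeded all 6 negative controls but lay under the dimmest gene called present on that array, at 18982 units. With that gene as the limit, FZD10 was at least 1.23-fold higher with hiNOS after blank subtraction and at least 1.06-fold higher by density. The measured ratio of its own values was 1.82-fold. The difference of 3070 units was larger than any duplicate difference, but genes absent on both arrays, such as NLK above, moved as far between arrays. On the array list the FZD10 spot is numbered between FZD1 and FZD2, and spread of signal from a bright neighbour was not tested. The spot numbered on the other side of FZD2, FZD3, had 10873 and 11094 units. Whether the numbering follows the layout of the spots was not examined, so nothing on spread of signal is drawn from these values.

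**Figure D1:**
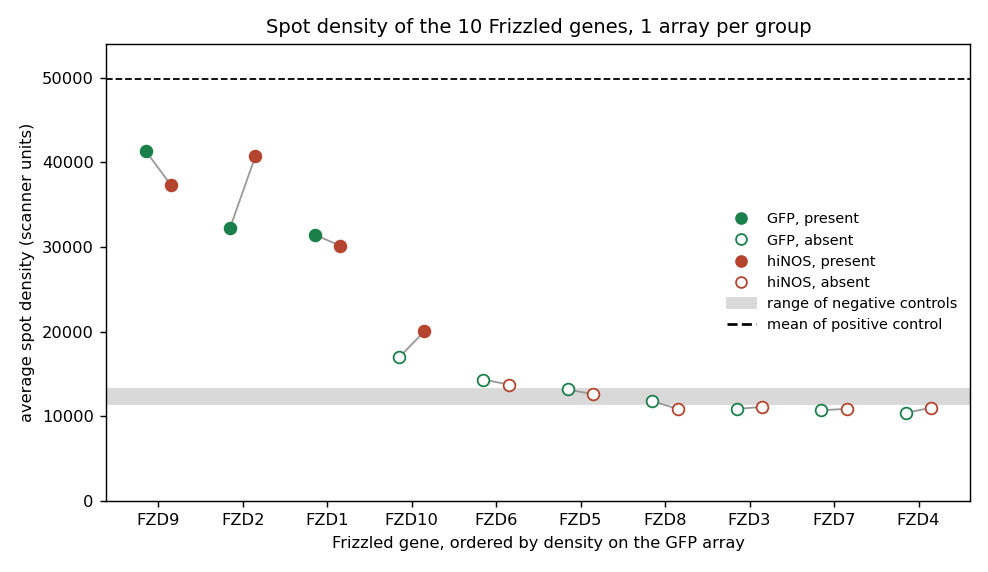
Average spot density in scanner units (y axis) of the 10 Frizzled genes, ordered by density with GFP, for the GFP array (green) and the hiNOS array (red), 1 array each, with filled points called present and open points absent. FZD2 rises from 32261 to 40749 units and passes FZD9, while 6 genes lie near or below the grey range of the negative controls on both arrays.

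The order of the bright spots was FZD9, FZD2, FZD1, FZD10 with GFP and FZD2, FZD9, FZD1, FZD10 with hiNOS. The density of FZD9 less that of FZD2 was 9109 units with GFP and -3420 with hiNOS, and both gaps were larger than the duplicate spread. That spread comes from blank and very bright spots and does not measure error at these densities. After blank subtraction the ratio of FZD9 to FZD2 signal was 1.47 with GFP and 0.88 with hiNOS. FZD1 and FZD10 kept places 3 and 4 on both arrays. As a description across different probes, FZD2 held 29.7% of the summed signal of the 10 spots with GFP and 37.9% with hiNOS, or 16.7% and 20.5% of the summed density with no background subtracted. FZD9 held 43.5% and 33.3% of the summed signal. FZD1 held 28.4% and 23.8%, and FZD10 6.38% and 10.2%, in a sum that counts the spots below the blanks as negative.

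The other 6 receptors gave no signal that the authors' software called present. FZD6, which acts in planar polarity and hair patterning in mice, had 14328 units with GFP and 13742 with hiNOS. It was the only absent Frizzled gene brighter than all 6 negative controls on both arrays, which held for 12 of the 54 pathway genes absent on both. FZD5, studied for its part in eye and gut development in mice, had 13157 and 12593 units, above the highest negative control with GFP (12779) and below it with hiNOS (13214).

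FZD8, FZD3, FZD7 and FZD4 were dimmer than every negative control on both arrays. FZD8, whose mouse cysteine-rich domain was used to solve the structure of a Wnt bound to its receptor, had 11793 units with GFP and 10844 with hiNOS. FZD3, which guides axons in mice, had the 10873 and 11094 units given above. FZD7, a receptor of intestinal stem cells in mice, had 10701 and 10865 units. FZD4, which also binds Norrin and is mutated in a familial retinal disease, had 10394 units with GFP, the lowest of all 128 spots on that array, and 11008 with hiNOS. Values this close to the blanks carry no fold, and the changes of the 6 absent receptors between arrays, from -949 to 614 units, were within the size of the changes of the negative controls, from -1014 to 878.

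By subgroup, FZD1 and FZD2 were bright while FZD7, of the same subgroup, lay below the negative controls. FZD9 was bright, FZD10 was near the detection limit, and FZD4, of the same subgroup, was the dimmest gene with GFP. Both members of the FZD5 and FZD8 subgroup and of the FZD3 and FZD6 subgroup were absent on both arrays. Probe sequences were not used here, so cross-hybridisation between relatives was not tested.

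Against the whole array, 3 of 10 Frizzled genes were present with GFP, where 46.9% of the 113 pathway genes were, and 4 of 10 with hiNOS, where 45.1% were. On both arrays 3 of 10 were present against 39.8% of all genes, and 6 of 10 were absent on both against 47.8%. Dimmer than every negative control on both arrays were 4 of 10 Frizzled genes, against 15.0% of all genes (17 of 113, the 4 included). The counts depended on the detection limit. Above the highest negative control were 6 of 10 Frizzled genes with GFP and 5 with hiNOS, against 72.6% and 62.8% of all genes, and above the negative-control mean plus 3 SD were 5 and 4, against 65.5% and 56.6%. FZD10 passed both limits on both arrays. With 10 genes these shares are a description and nothing particular to the family is drawn from them.

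Of the 59 genes present on at least 1 array, and with genes absent on 1 array at their bound, 3 were 2-fold higher (5.08%), 6 were 2-fold lower (10.2%) and so 15.3% differed by 2-fold in either direction. That split over all genes moved with the processing, to 0 higher and 0 lower with no background subtracted, to 5 higher and 3 lower with quantile normalization and to 1 higher and 6 lower when scaled to the median gene. Of the 4 Frizzled genes among them, 0 were higher and 0 lower. At 1.5-fold 27.1% of the 59 genes differed and 0 of the 4 Frizzled genes, but FZD2 passed 1.5-fold when scaled to the middle 50% of spots, where 28.8% of the genes did, and with the deposited values. The median log2 ratio was 0.11 over the 4 Frizzled genes, FZD10 at its bound, and -0.01 over the 59 genes. Without FZD10, over the 3 genes present on both arrays, it was -0.08, which is the value of FZD1. In the authors' deposited table, 16 genes stand as higher and 23 as lower with hiNOS at 2-fold, beside 113 pathway genes on the array, and 0 entries are Frizzled genes. From the deposited values, 3 higher and 4 lower were found here among the 59 genes. Why the authors' list is longer was not examined, and nothing particular to the family is drawn from it.

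**Figure D2:**
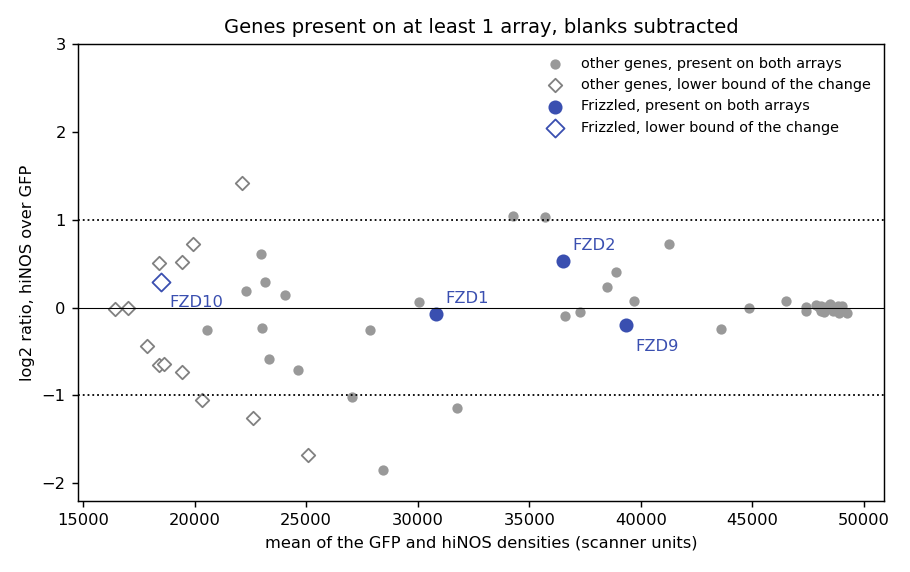
Log2 ratio of hiNOS over GFP after blank subtraction (y axis) against the mean density of both arrays in scanner units (x axis) for the 59 genes present on at least 1 array, with Frizzled genes in blue, lower bounds as open diamonds (at 0 where no bound exceeds 1-fold) and 2-fold as dotted lines. FZD2 lies at 0.53 and FZD9 at -0.20, and all 4 Frizzled points lie between the dotted lines.

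The authors' deposited normalized intensities are the same densities less the blanks, divided by 1 constant per array, so the order within an array is the same by construction. On that scale FZD9 had 3.49 with GFP and 3.21 with hiNOS, and FZD2 had 2.38 and 3.65. FZD1 had 2.28 and 2.29, and FZD10 had 0.51 and 0.99. FZD2 was 1.54-fold higher by recomputation on that scale, since its scaling by the middle 50% of all spots places every ratio of hiNOS over GFP higher than the GAPDH and ACTB scaling does. The deposited values of FZD3, FZD4, FZD7 and FZD8 were below 0 on both arrays, from -0.29 to -0.12.

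The genes nearest to FZD2 in log2 ratio, out of the 42 other genes present on both arrays, were FOXN1, KREMEN2 and NKD2. FOXN1, a forkhead factor gene, had 20960 units with GFP and 24972 with hiNOS, a log2 ratio of 0.61. KREMEN2, whose protein binds Dickkopf, had a log2 ratio of 0.41, from 35352 units with GFP and 42434 with hiNOS. NKD2, which encodes a Dishevelled-binding antagonist, had a log2 ratio of 0.73. Likeness here is the closeness of 1 ratio between 2 arrays. The nearest to FZD9 were WNT1 at -0.24, JUN at -0.25 and CSNK2B at -0.26, and the nearest to FZD1 were WNT8B at -0.07, WNT6 at -0.06 and TCF7L1 at -0.09. WNT8B and WNT6 are among the 19 genes at 90% or more of the positive control on both arrays. These 19 were picked as near the positive control on both arrays, so their density ratios are near 1-fold by that choice. Their density log2 ratios ran from -0.05 to 0.06. The closeness of WNT8B and WNT6 to FZD1 reads no further.

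Genes whose proteins act at the receptor were described as lists. Both co-receptor genes were absent on both arrays. LRP5 had 11486 units with GFP and 11080 with hiNOS, dimmer than every negative control on both arrays, and LRP6 had 15677 and 15634 units, above all 6 negative controls. Kremen proteins remove LRP co-receptors from the surface together with Dickkopf: KREMEN1 was absent on both arrays, and KREMEN2 was present on both with the values above.

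Of the 4 Dickkopf genes, DKK3 and DKK4 were present on both arrays and DKK1 and DKK2 on neither. DKK4, a secreted antagonist that binds LRP co-receptors, had 27749 units with GFP and 21559 with hiNOS and was 1.63-fold lower after blank subtraction and 1.28-fold lower by density. Secreted Frizzled-related proteins carry a cysteine-rich domain like that of the receptors and bind Wnt outside the cell. Of the 5 genes on the array from the list with WIF1, FRZB was present with GFP only and at least 1.57-fold lower with hiNOS (at least 1.20-fold by density), SFRP4 and SFRP5 were present on both with log2 ratios of 0.23 and -0.06, and SFRP1 and WIF1 were absent on both. DVL1 and DVL3, which encode the cytoplasmic partners of the receptors, were near the positive control on both arrays, between 47695 and 48880 units, and DVL2 was absent on both.

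Among the 19 Wnt ligand genes, 11 were present on at least 1 array, 6 of them near the positive control on both. WNT3 and WNT5A, 2 of these 11, were past 2-fold, both lower with hiNOS, where 10.2% of the 59 genes were 2-fold lower. With so few genes, nothing particular to the ligands is drawn from this count. WNT3 had 32175 units with GFP and 21952 with hiNOS, 2.03-fold lower after blank subtraction. WNT5A, absent with hiNOS, had 25564 and 15127 units and was at least 2.08-fold lower. Under the scaling of the deposited values WNT3 was 1.92-fold and WNT5A at least 1.96-fold lower, and by density with no background subtracted 1.46-fold and at least 1.37-fold, all short of 2-fold. In the receptor lists other than the ligands, 0 genes were past 2-fold.

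**Figure D3:**
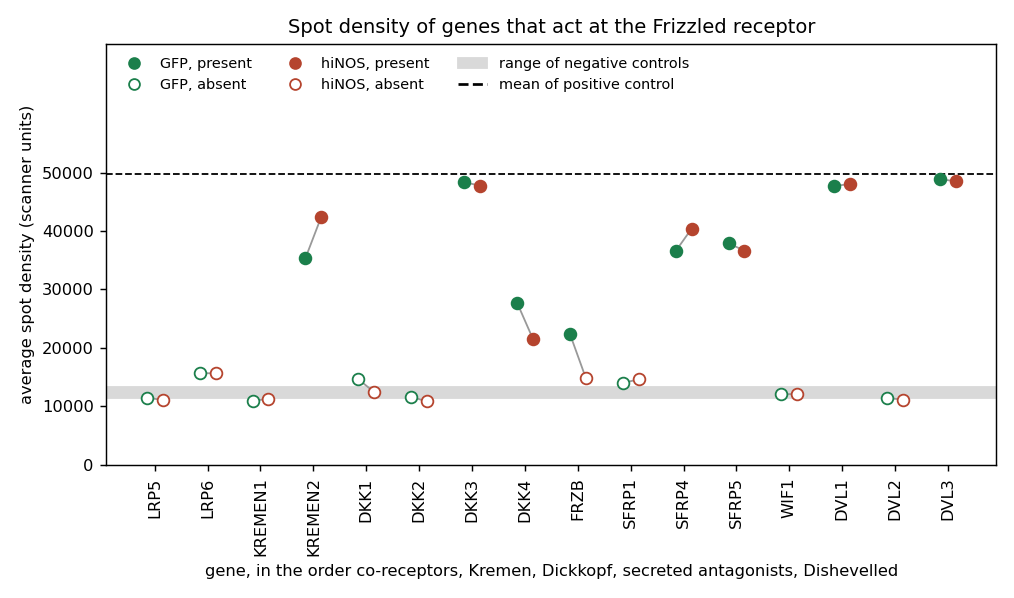
Average spot density in scanner units (y axis) of genes that act at the Frizzled receptor, for the GFP array (green) and the hiNOS array (red), 1 array each, with filled points called present and open points absent. The grey range spans the negative controls of both arrays together. LRP5 lies just inside it with GFP and below it with hiNOS, and LRP6 lies above it. KREMEN2 is higher with hiNOS, and DKK4 and FRZB are lower.

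The direction of FZD2 was the same under every background and scaling tried, which these settings could hardly have changed, as set out below. Over 13 settings its log2 ratio ran from 0.34, with no background subtracted, to 0.62, scaled to the middle 50% of spots. FZD9 was lower with hiNOS under the same 13 settings, from -0.38 to -0.12. The bound of FZD10 ran from 0.08 to 0.58, and by its definition it cannot fall below 0, so it could not show a turned direction. FZD1 was lower in 10 settings and higher in 3, where the middle 50% of spots and the deposited values share a scaling. All 13 settings reprocess the same arrays, and most scalings shift every log2 ratio alike. The median of the 59 genes moved by -0.18 at most downwards and by 0.08 at most upwards. FZD2 lay at 0.53 and FZD9 at -0.20 as reported, so a turned direction was hardly possible for either. Their ranges describe the processing and are not evidence that the differences would repeat.

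**Figure D4:**
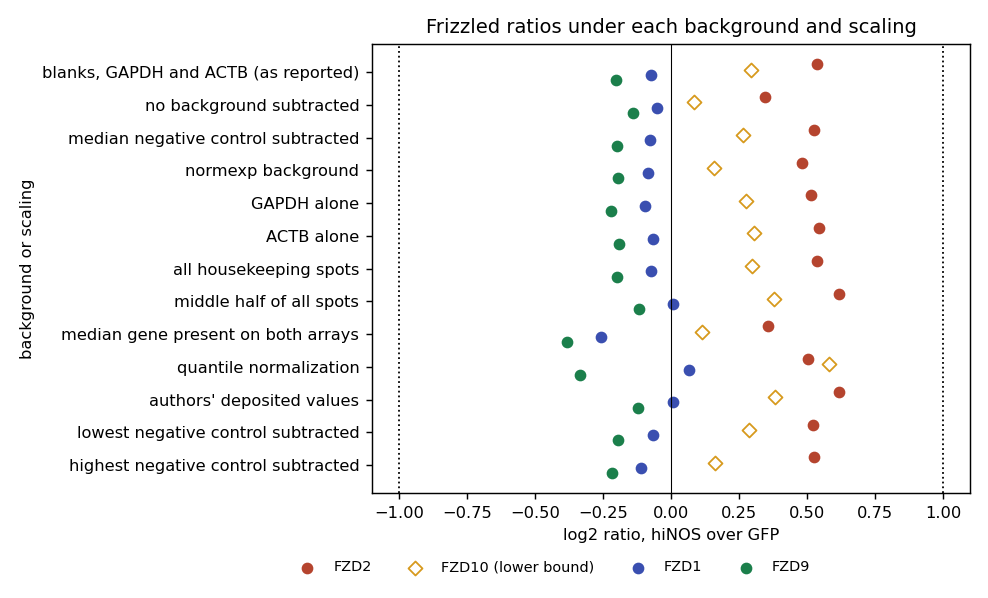
Log2 ratio of hiNOS over GFP (x axis) of the 4 Frizzled genes present on at least 1 array under 13 combinations of background and scaling (y axis), with FZD10 as a lower bound (open diamonds) and 2-fold as dotted lines. FZD2 stays between 0.34 and 0.62, FZD9 between -0.38 and -0.12, and FZD1 lies on both sides of 0.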

How the data were processed

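Biotin-labelled cRNA of 2 SW480 lines was hybridised to 2 oligonucleotide membrane arrays, imaged by autoradiography and read with GEArray Expression Analysis Suite 2.0, per the series text. The authors deposited the intensity of each of 128 spots as average density, per the file headers, with no background removed. Their further intensity table holds density less the blank mean, over the mean of the middle 50% of spots, which recomputation matched to within 0.005. The authors' list of genes beyond 2-fold holds a score, a signed ratio after blank subtraction and interquartile scaling, per the file headers. Absent spots are those whose density was below 1.5 times the background level, taken from the lower 75 percentile of spots, per the file headers. The series text instead names division by GAPDH and beta-actin, and describes repeated RNA preparations, of which 1 array per line was analysed here.

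Here the mean of the 2 blank spots was subtracted, and signals were scaled to the average of GAPDH and ACTB. Blank subtraction replaced the plain density ratio because background is still in the densities. Where 1 array called a gene absent, the ratio is a lower bound, taken against the dimmest present gene of that array. The ratio calculation was run on simulated arrays without spot noise, where correct code returns the set ratios by construction. It checks the code and says nothing on the error of these arrays. All 10 accessions named a Frizzled gene in RefSeq. Named genes were the 10 receptors, fixed lists of receptor partners, and the 3 nearest ratios per receptor. Members and lists were chosen with earlier results of these data known. Normexp used limma 3.58.1 with an offset of 50, under R 4.3.3. Other steps used Python 3.11.15 with pandas 2.3.3. The number of arrays, 1 per group, limits precision.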

Additional observations from a re-analysis of the deposited data

How the results depend on the processing

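The median log2 ratio of the 4 Frizzled genes above background, 0.11 as reported, was 0.015 with no background subtracted, 0.19 both with the middle 50% of all spots and with the deposited values, 0.28 with quantile normalization, 0.024 with the highest negative control subtracted and -0.072 with the median gene present on both arrays. That last scaling moved the median of all 59 genes by -0.18 and the others by under 0.1. No direction is given for the family. FZD1 turned from -0.08 to 0.0073 with the middle 50% of spots, 0.0063 with the deposited values and 0.067 with quantile normalization. The middle 50% scaling, which the deposited values share, places every ratio higher, as given above. Why quantile normalization turned FZD1 was not tested. Frizzled genes above background with GFP numbered 3 by the authors' calls, 6 above the highest negative control and 5 above the negative-control mean plus 3 SD. With hiNOS they numbered 4, 5 and 4, so the array with more of them changed. Over all 113 genes the shares were 46.9%, 72.6% and 65.5% with GFP and 45.1%, 62.8% and 56.6% with hiNOS. Nothing particular to the receptors is drawn from these counts. With no background subtracted, FZD2 held 16.7% of the summed Frizzled density with GFP and 20.5% with hiNOS. The count of Frizzled genes past 2-fold was 0 in every setting run, although the measured ratio of FZD10, without its bound, reached 2.25-fold with quantile normalization. Over all 59 genes 2-fold genes numbered 3 higher and 6 lower as reported, 0 and 0 with no background subtracted, 1 and 4 with normexp, 5 and 3 with quantile normalization, 1 and 6 with the median gene, 2 and 4 with the lowest negative control, and 3 and 4 with the middle 50% of spots or the deposited values. Subtraction of the lowest or highest negative control was added after the data were seen. No paired analysis was possible because only 1 array of each line was analysed, and no replicate could be left out. Signal over background limits the 6 receptors absent on both arrays.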
